A study of Mus musculus with 6 samples.

Results

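The genes described here are 10 activity-dependent immediate early genes, Fos, Fosb, Junb, Egr1, Egr2, Egr3, Egr4, Npas4, Nr4a1 and Arc, in the hippocampus of Tg2576 mice. They were chosen by symbol, with earlier results of these data known, as genes that neurons switch on within minutes of firing. All 10 were on the array, among 18194 genes with a probe set of their own. They had 12 probe sets, all of which were bright enough to be tested, as were 12325 genes in all. A probe set is a group of short probes for a transcript. Fos was read by 1423100_at, Fosb by 1422134_at, Junb by 1415899_at, Egr1 by 1417065_at, Egr4 by 1449977_at, Npas4 by 1459372_at, Nr4a1 by 1416505_at and Arc by 1418687_at, and Egr2 and Egr3 had 2 probe sets each.

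Every mouse was a male Tg2576 mouse on a C57BL/6 background (C57BL/6J in the methods), which carries a transgene for human amyloid precursor protein (the APP695 isoform with the Swedish mutation) driven by the prion protein promoter. The mice formed 3 groups of 2 chips each. The first drank plain water until 18 months of age (Tg-18mo). The second drank captopril, which blocks the angiotensin-converting enzyme, from 12 to 18 months (Tg-18mo-ACEI; a daily dose of 20 mg/kg over 6 months). The third was untreated and 12 months old (Tg-12mo), the age at which treatment began. The labels give a high amyloid plaque load for Tg-18mo and a low one for Tg-12mo. Animals without the transgene were not analysed here, so age and plaque load cannot be told apart. Each chip carried RNA pooled from 4 mice, and the p-values therefore measure the spread between chips, which may be technical, not that between mice. The mice were anaesthetised and perfused with saline before the hippocampus was dissected, as the study's methods describe.

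Immediate early genes need no new protein for their induction. Calcium entry through synaptic receptors and voltage-gated channels activates kinases that act on transcription factors already bound at these genes, among them CREB at cAMP response elements, the serum response factor with its partners at CArG boxes, and MEF2. Their transcripts are short-lived, so the level in a tissue follows the recent activity of its cells, and in the hippocampus they mark neurons engaged in learning. Most members encode transcription factors, and Arc encodes a protein that acts at the synapse itself. In RNA of a whole tissue, fewer cells that express a gene and less RNA per cell cannot be told apart.

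The bases just upstream of the transcription start are given for the members that were lower with captopril and have an entry in the RefSeq promoter table (GRCm38.p6). They run 5′ to 3′ on the strand of the gene over the 250 bases just before the start. The capitals mark each match to the core of the cAMP response element, TGACG, or CGTCA where it lies on the other strand. The window of Fos, chr12:85473640-85473889, and that of Nr4a1, chr15:101266596-101266845, are on the plus strand. Those of Junb, chr8:84978749-84978998, Egr4, chr6:85513590-85513839, and Npas4, chr19:4989972-4990221, are on the minus strand.
Fos: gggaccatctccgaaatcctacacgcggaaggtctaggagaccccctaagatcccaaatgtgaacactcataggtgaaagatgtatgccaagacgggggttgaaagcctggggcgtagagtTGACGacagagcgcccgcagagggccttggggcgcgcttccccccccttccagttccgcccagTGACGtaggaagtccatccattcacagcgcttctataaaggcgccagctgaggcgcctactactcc
Junb: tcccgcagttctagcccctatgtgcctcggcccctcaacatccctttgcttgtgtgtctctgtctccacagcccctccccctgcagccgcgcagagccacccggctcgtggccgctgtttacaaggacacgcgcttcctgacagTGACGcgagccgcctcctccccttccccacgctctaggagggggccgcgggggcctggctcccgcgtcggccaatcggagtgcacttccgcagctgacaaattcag
Egr4: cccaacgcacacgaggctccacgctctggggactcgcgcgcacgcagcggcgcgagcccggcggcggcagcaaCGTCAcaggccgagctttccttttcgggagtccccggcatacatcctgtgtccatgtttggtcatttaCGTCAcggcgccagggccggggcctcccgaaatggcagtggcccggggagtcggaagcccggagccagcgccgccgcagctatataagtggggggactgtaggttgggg
Npas4: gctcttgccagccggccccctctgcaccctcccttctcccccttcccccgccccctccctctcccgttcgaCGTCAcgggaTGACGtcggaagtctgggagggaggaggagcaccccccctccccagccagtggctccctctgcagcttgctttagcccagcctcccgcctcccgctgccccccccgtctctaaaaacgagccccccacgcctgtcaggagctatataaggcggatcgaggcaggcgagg
Nr4a1: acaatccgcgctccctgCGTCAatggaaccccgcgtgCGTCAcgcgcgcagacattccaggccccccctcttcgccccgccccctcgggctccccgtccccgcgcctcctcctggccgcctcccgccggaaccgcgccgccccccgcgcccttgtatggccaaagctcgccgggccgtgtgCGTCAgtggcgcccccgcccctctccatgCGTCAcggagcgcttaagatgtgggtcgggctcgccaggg

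A core match lay in the upstream window of 7 of the 7 members with an entry, these 5 together with Fosb and Egr2, which has 5 windows, 3 of them with a match. Among all 32851 windows of the same length, 17.8% held a match, and by gene the share was 19.8% of 27025. Nr4a1 had 4 matches, at positions -233, -213, -69 and -40 from the start, and Fos had 2, at -129 and -66. Egr4 and Npas4 also had 2 each, while Junb and Fosb had 1. The full palindrome TGACGTCA, which contains the core on both strands, was in no member window and in 1.55% of all windows. A CArG box, searched on both strands, was found in 4 windows of Egr2 and in no other of the 7 members with an entry. It was present in 1.47% of all windows and, by gene, in 1.62%. Bases further upstream, and members with no entry, were not searched. A TATA sequence, TATAAA or TATATA on the strand of the gene, was present in 3 of the 7 members. These were Fos, Egr4 and Npas4, at positions -33, -29 and -28, beside 11.5% of all windows and 13.4% of genes. The site bound by Egr proteins, GCGTGGGCG or GCGGGGGCG on either strand, was present in 2 of the 7 members, Fosb and Nr4a1. It was in 3.06% of all windows and 3.47% of genes. These are letter matches and say nothing of binding in this tissue.

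**Figure D1:**
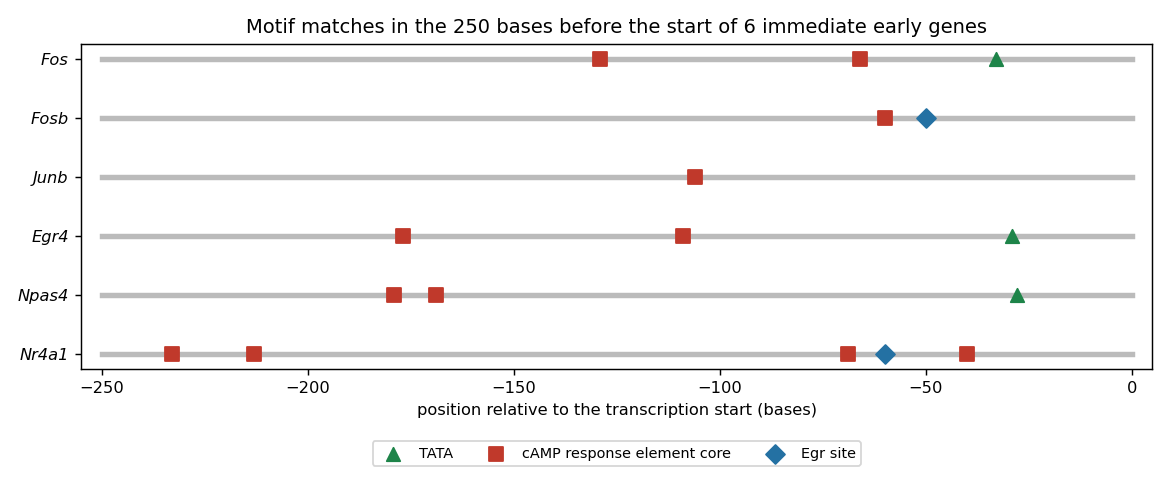
Positions of motif matches, in bases from the transcription start, for 6 immediate early genes with a single upstream window (Egr2, with several starts, is left out). Squares are core cAMP response elements, triangles TATA sequences and diamonds Egr sites; every gene has at least 1 square, and the triangles of Fos, Egr4 and Npas4 lie between -33 and -28.

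Captopril-treated mice had lower signals for 7 of the 10 genes than untreated mice of the same age (Fos, Junb, Egr1, Egr4, Npas4, Nr4a1 and Arc), a higher signal for 1 (Egr3), and for 2 (Fosb and Egr2) the difference did not pass. The threshold was an adjusted p under 0.05 in limma. Among all genes tested, 21.7% were lower and 12.6% higher by the same rule. The median log2 difference of the 10 genes was -0.54, beside -0.08 for all genes. The mean signal of Fosb and Npas4 was under the filter of 100 at 12 months, and that of Egr2 in treated mice; each reached 100 in the other 2 groups. Under the thresholds of the study, an unadjusted p of 0.01 or less and a 2-fold difference, Npas4 was the 1 member that was lower and no member was higher. In this count 1.31% of all genes were lower and 0.876% higher.

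Mice of 12 months were compared with untreated mice of 18 months, from which they differed in both age and plaque load. Of the genes, 6 were lower in the younger mice (Fosb, Junb, Egr1, Egr4, Npas4 and Arc), 2 were higher (Egr3 and Nr4a1), and for Fos and Egr2 the difference did not pass. Here 28% of all genes were lower and 21% higher. The median of the 10 genes was -0.31 on the log2 scale, beside -0.06 for all genes. At the study's thresholds Npas4 was again the 1 member that was lower, beside 2.16% of all genes, and no member was higher, beside 0.771%.

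Between captopril-treated mice of 18 months and mice of 12 months, Fos and Nr4a1 were lower in the treated mice, Fosb was higher, and 7 genes did not pass. The background was 20.6% lower and 20.1% higher. The median log2 difference was -0.05, beside 0.01 for all genes. No member reached the study's thresholds in either direction, which 1.27% of all genes did as lower and 0.998% as higher. The 3 comparisons share chips with each other, the 2 Tg-18mo chips in particular stand in the first and the second, so they are not independent of one another.

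**Figure D2:**
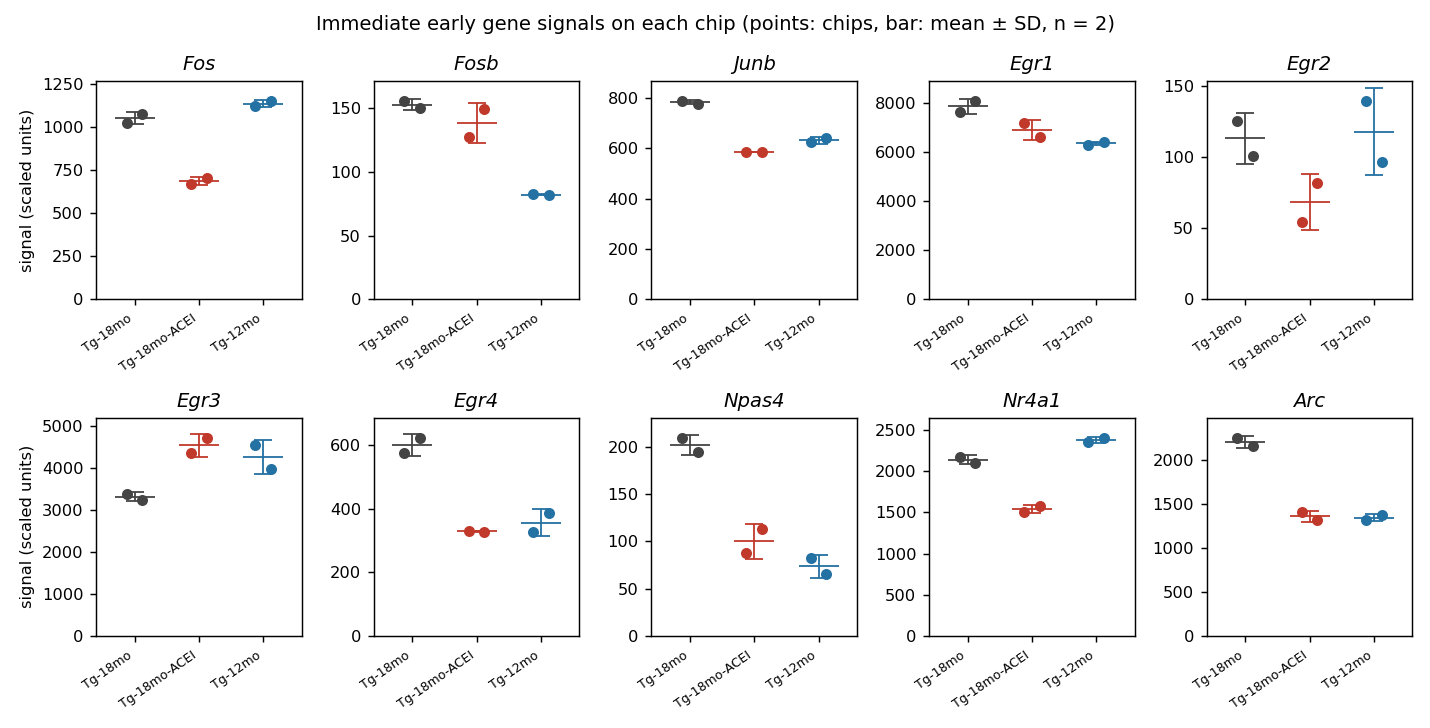
Scaled signal of the 10 genes on each of the 6 chips, on linear axes from 0; points are chips and bars give the mean ± SD of 2 chips in Tg-18mo (grey), Tg-18mo-ACEI (red) and Tg-12mo (blue). Junb, Egr1, Egr4, Npas4 and Arc were highest on both Tg-18mo chips. Fos and Nr4a1 were lowest on both Tg-18mo-ACEI chips, and Egr3 was lowest on both Tg-18mo chips. The share of all genes whose chips separate in this way was not computed.

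Fos forms the AP-1 transcription factor with a Jun protein and is the classical marker of recently active neurons. Its signal was 1023 and 1072 on the untreated chips of 18 months, 667.2 and 702.0 on those of captopril-treated mice and 1119 and 1149 on those of mice of 12 months. The treated chips lay below all the others, and the 2 untreated ages lay close together. The group means were 1048 ± 34.9 (SD, n = 2), 684.6 ± 24.6 and 1134 ± 21.8. Fos was 1.53-fold lower with captopril than without, a log2 difference of -0.61 (SE 0.07, adjusted p = 0.00031). It was 1.66-fold lower than at 12 months (log2 difference -0.73, adjusted p = 9.3e-05). Between 12 and 18 months without treatment the log2 difference was 0.11, with a 95% interval from -0.04 to 0.27 (adjusted p = 0.19). After quantile normalization it was 0.21 and passed (adjusted p = 0.041).

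Nr4a1, an orphan nuclear receptor also called Nur77, ordered its groups in the same way. Its signal was 2176 and 2105 on the untreated chips of 18 months, 1507 and 1572 on those of captopril-treated mice and 2350 and 2407 on those of mice of 12 months. The treated chips were again the lowest, with no overlap. Nr4a1 was 1.39-fold lower with captopril than without (log2 difference -0.48, SE 0.05, adjusted p = 0.00034) and 1.55-fold lower than at 12 months (-0.63, adjusted p = 6e-05). Its level at 12 months was 1.11-fold that at 18 months (log2 difference 0.15, adjusted p = 0.042). That small difference was lost when any 1 of the 6 chips was left out, with adjusted p from 0.052 to 0.19.

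Arc binds endocytic proteins at the synapse and controls the number of AMPA receptors there. Its signal was 2256 and 2157 without treatment at 18 months, 1404 and 1313 with captopril, and 1318 and 1371 at 12 months. Treated and 12-month chips overlapped with each other and lay well below the untreated chips of 18 months. Arc was 1.62-fold lower with captopril (log2 difference -0.70, SE 0.06, adjusted p = 8.8e-05) and 1.64-fold lower at 12 months (-0.71, adjusted p = 4.9e-05). The difference between treated mice and mice of 12 months was 0.01 on the log2 scale, with a 95% interval from -0.12 to 0.15, and its sign varied with the chips kept.

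Npas4 is a transcription factor that is induced in neurons by calcium entry and directs the formation of inhibitory synapses. Its signals were near the lower end of the tested range, at 209.9 and 194.4 without treatment at 18 months, 87.3 and 113.2 with captopril, and 82.3 and 65.2 at 12 months. The untreated chips of 18 months stood above all others. Npas4 had the largest fall of the 10 genes in both comparisons with untreated mice of 18 months, 2.03-fold with captopril (log2 difference -1.02, SE 0.24, adjusted p = 0.012) and 2.76-fold at 12 months (-1.46, adjusted p = 0.0013). The captopril difference no longer passed when either Tg-18mo chip (adjusted p = 0.080 and 0.063) or the first Tg-18mo-ACEI chip (0.076) was left out. Between treated mice and mice of 12 months the log2 difference was 0.44, with an interval from -0.10 to 0.98 (adjusted p = 0.17).

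The Egr genes encode zinc finger transcription factors that bind a shared GC-rich site, and the 4 of them did not move together. Egr4 had signals of 574.0 and 622.8 without treatment at 18 months, 328.2 and 327.6 with captopril, and 325.6 and 385.4 at 12 months. Like Arc, it was high on the Tg-18mo chips and overlapped between the other groups. It was 1.82-fold lower with captopril (log2 difference -0.87, SE 0.11, adjusted p = 0.00077) and 1.69-fold lower at 12 months (-0.76, adjusted p = 0.00084).

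Egr1, also called Zif268, is needed for the late phase of long-term potentiation. Its signal was 7634 and 8078 without treatment at 18 months, 7173 and 6608 with captopril, and 6297 and 6388 at 12 months. The groups did not overlap, with treated mice between the 2 untreated ages. Egr1 was 1.14-fold lower with captopril (log2 difference -0.19, SE 0.05, adjusted p = 0.028), the smallest of the falls that passed, and 1.24-fold lower at 12 months (-0.31, adjusted p = 0.0020). The captopril difference did not pass when the second Tg-18mo chip or the second Tg-18mo-ACEI chip was left out (adjusted p = 0.17 for each). Nor did it pass with no filter (0.053), with each chip divided by its median (0.073), without the trend in the prior variance (0.11) or with the replicate number as a block (0.052).

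Egr3 is a target of neurotrophin and synaptic signalling that is also needed in muscle spindles. Its bright probe set (1436329_at) read 3390 and 3238 without treatment at 18 months, 4354 and 4728 with captopril, and 4550 and 3977 at 12 months. It was thus the 1 member with its lowest values in untreated mice of 18 months. The signal was 1.37-fold higher with captopril (log2 difference 0.45, SE 0.07, adjusted p = 0.0021) and 1.28-fold higher at 12 months (0.36, adjusted p = 0.0038). The second probe set (1421486_at) was dim, at 116.0 and 129.9, 102.1 and 110.5, and 105.0 and 69.2 in the same order of groups. It differed by -0.21 with captopril (adjusted p = 0.57) and by -0.53 at 12 months (adjusted p = 0.13), opposite in direction to the bright one. The mean of both probe sets gave 0.12 with captopril and -0.08 at 12 months, neither of which passed, so the direction for Egr3 depends on the probe set.

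Egr2, or Krox20, is best known for its role in myelination and is also induced by synaptic activity. Its brighter probe set (1427682_a_at) was close to the lower limit of the test, with signals of 125.6 and 100.3 without treatment at 18 months, 54.2 and 81.9 with captopril, and 139.4 and 96.3 at 12 months. Chips of 1 group differed more for Egr2 than for any other member, by 0.32 to 0.60 on the log2 scale. The captopril difference was -0.75 with an interval from -1.46 to -0.04 (adjusted p = 0.095), and that against 12 months was -0.80 (adjusted p = 0.071). The second probe set (1427683_at) read between 59.5 and 116.9 on all chips and differed by -0.10 with captopril (adjusted p = 0.85).

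Junb and Fosb are the other AP-1 members. Junb had signals of 788.3 and 777.6 without treatment at 18 months, 585.7 and 584.5 with captopril, and 622.8 and 642.3 at 12 months. It was high in untreated mice of 18 months and lowest with treatment. The fall was 1.34-fold with captopril (log2 difference -0.42, SE 0.07, adjusted p = 0.0031) and 1.24-fold at 12 months (-0.31, adjusted p = 0.0085). At 12 months it did not pass after quantile normalization (adjusted p = 0.057) or without the first Tg-18mo chip (0.054).

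Fosb, whose stable splice form accumulates with repeated stimulation, differed between the 2 untreated groups, and its difference with captopril did not pass. Its signal was 155.9 and 150.0 without treatment at 18 months, 127.2 and 149.3 with captopril, and 82.4 and 81.8 at 12 months. The chips of 12 months lay below all 4 chips of 18 months. Fosb was 1.86-fold lower at 12 months than at 18 months (log2 difference -0.90, SE 0.20, adjusted p = 0.0069). Treated mice were 1.68-fold above mice of 12 months (0.75, adjusted p = 0.019), which did not pass without the second Tg-18mo-ACEI chip (adjusted p = 0.13). The captopril difference was -0.15, with an interval from -0.61 to 0.31 (adjusted p = 0.60).

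**Figure D3:**
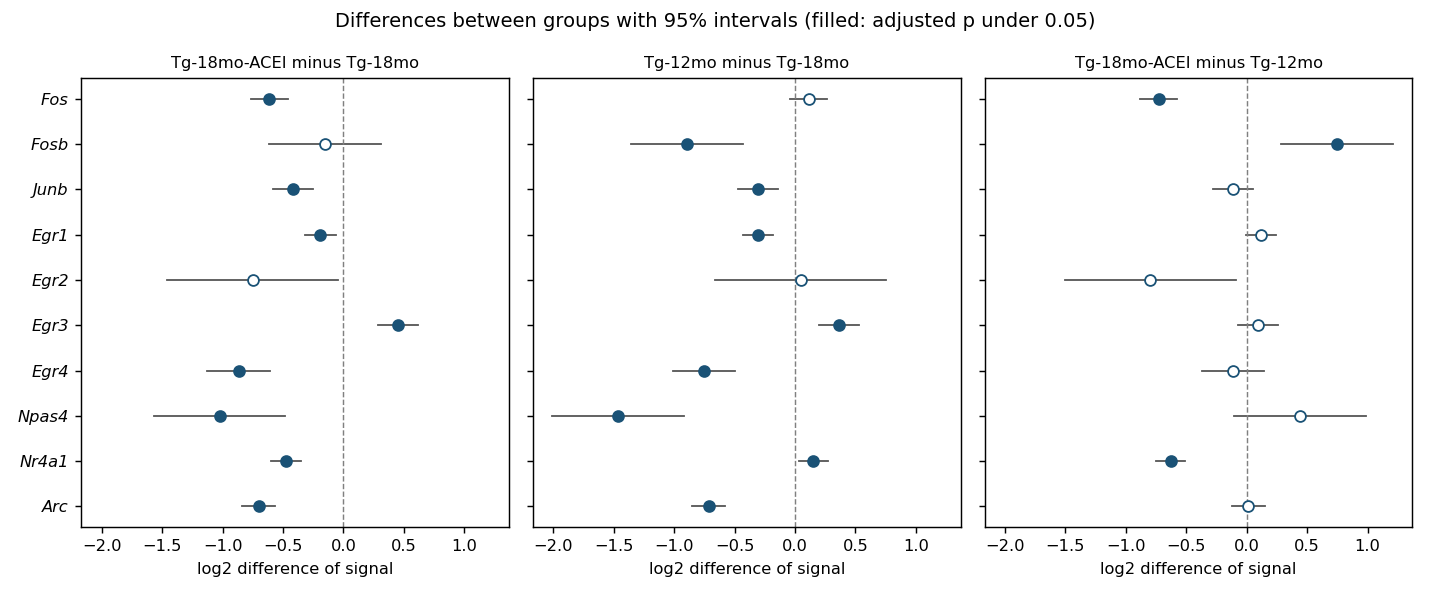
Log2 difference of signal (horizontal axis) of the 10 genes in the 3 comparisons, with 95% intervals; filled points passed at an adjusted p under 0.05. In the left panel 7 filled points lie below 0 and Egr3 lies above it at 0.45. In the right panel the intervals of Arc, Egr4, Junb, Egr1, Egr3 and Npas4 include 0. Those of Fos (-0.73), Nr4a1 (-0.63), Egr2 (-0.80) and Fosb (0.75) do not, and of these Egr2 did not pass after adjustment.

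The genes thus differed in where mice of 12 months stood. For Arc, Egr1, Egr4, Junb and Npas4 the 12-month and the treated mice were both below untreated mice of 18 months. The difference between those lower groups did not pass (adjusted p from 0.12 for Egr1 to 0.87 for Arc). Both comparisons with untreated mice of 18 months used the same Tg-18mo chips. The share of all genes lower in both was not computed, so this pattern has no background to stand beside. For Fos and Nr4a1 both chips of 12 months read above the untreated chips of 18 months, a difference that passed for Nr4a1 and not for Fos, and the difference to treated mice passed for both. Fosb was low at 12 months alone. For the members the median absolute log2 difference between the chips of 1 group was 0.07 in Tg-18mo, 0.11 in Tg-18mo-ACEI and 0.05 in Tg-12mo. For all genes it was 0.08, 0.09 and 0.10. The members' chips thus lay closer together than those of all genes in the untreated groups and farther apart in Tg-18mo-ACEI.

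Close relatives of the members in the AP-1 and Nr4a families were in a list of 44 other activity-regulated genes, of which 43 were on the array and 39 were tested. With captopril, 9 of the 39 were higher and 12 lower, beside 12.6% and 21.7% of all genes, and their median log2 difference was -0.09. At 12 months 8 were higher and 11 lower than at 18 months (median -0.06), beside 21% and 28% of all genes. In treated mice against mice of 12 months 12 were higher and 9 lower (median 0.08), beside 20.1% and 20.6%. The medians of all genes were -0.08, -0.06 and 0.01 in these comparisons. Atf3, Sik1, Maff and Gem were too dim to be tested.

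Jun, Jund, Nr4a2 and Nr4a3 were higher with captopril, where Fos, Junb and Nr4a1 were lower. Jun, the partner of Fos in AP-1, had signals of 1757 and 1751 without treatment at 18 months, 2629 and 2530 with captopril, and 1954 and 1956 at 12 months on its brighter probe set. It was highest on the treated chips, by 0.56 against untreated mice on the log2 scale (adjusted p = 0.00011), and its second probe set was higher too, by 0.36 (adjusted p = 0.0023). At 12 months the 2 probe sets of Jun disagreed, at 0.16 and -0.43. Jund, a Jun protein that neurons express without stimulation, was higher with captopril by 0.47 (adjusted p = 0.00016) and at 12 months by 0.55 (adjusted p = 4.5e-05). Fosl2 did not pass in either of these comparisons (0.18 and -0.10).

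Nr4a2, a nuclear receptor required for dopamine neurons and also for hippocampal memory, had 4 tested probe sets, and all of them were higher with captopril, by 0.59 to 1.39 on the log2 scale. At 12 months the same probe sets gave differences from -0.05 to 0.98, of which 2 passed. Nr4a3 had signals of 2008 and 2037 without treatment at 18 months, 3289 and 3181 with captopril, and 2926 and 2998 at 12 months. On their brightest probe sets both Nr4a2 and Nr4a3 were lowest in untreated mice of 18 months, where Nr4a1 was not. Nr4a3 rose by 0.68 with captopril (adjusted p = 3.1e-05) and was 0.55 higher at 12 months (adjusted p = 5.7e-05).

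**Figure D4:**
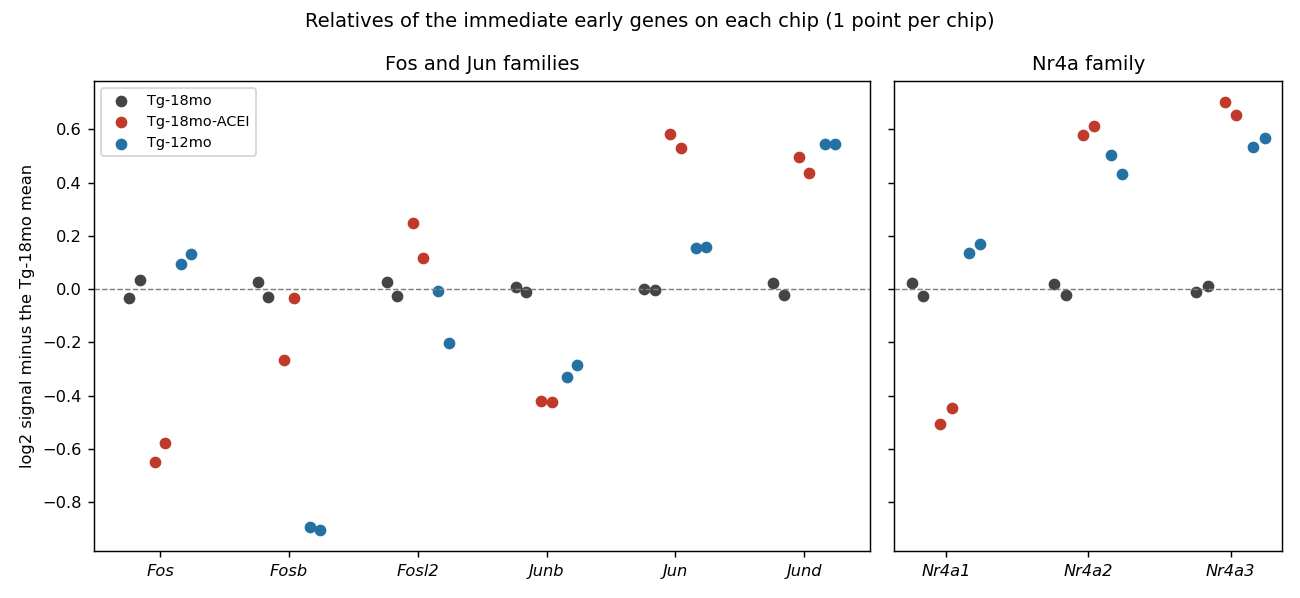
Log2 signal of AP-1 and Nr4a family genes on each chip minus the mean of the Tg-18mo chips (grey), for the brightest probe set of each gene; red points are Tg-18mo-ACEI and blue points Tg-12mo. With captopril Fos, Junb and Nr4a1 lie below 0, and Jun, Jund, Nr4a2 and Nr4a3 lie between 0.4 and 0.8 above it.

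Among the other activity-regulated genes, Nptx2, a secreted pentraxin that gathers AMPA receptors at synapses on interneurons, resembled Arc. Its signal was 873.9 and 910.8 without treatment at 18 months, 442.4 and 475.8 with captopril, and 439.9 and 512.7 at 12 months. It was lower with captopril (log2 difference -0.96, adjusted p = 0.00022) and at 12 months (-0.91, adjusted p = 0.00015), and a second probe set gave -0.94 and -0.93. Btg2 and Ier2, early response genes picked after their values were seen, were also lower in the 2 comparisons on their brightest probe sets. The log2 differences were -0.65 and -0.77 for Btg2 and -0.51 and -0.52 for Ier2. A second probe set of Btg2 differed by 0.29 with captopril and did not pass (adjusted p = 0.12).

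Per1, a clock gene that also responds to CREB and to glucocorticoids, resembled Fos and Nr4a1. Its signal was 901.2 and 903.2 without treatment at 18 months, 525.7 and 594.7 with captopril, and 989.6 and 1050 at 12 months. It was lower with captopril than without (log2 difference -0.69, adjusted p = 0.00046) and lower than at 12 months (-0.87, adjusted p = 0.0001). Dusp1, a phosphatase that switches off MAP kinases, was picked after its values were seen and had its lowest value with captopril too. Its log2 difference was -0.49 to untreated mice (adjusted p = 0.0023) and -0.77 to mice of 12 months (adjusted p = 0.00016). Gadd45b, which takes part in DNA demethylation, also had its lowest value with captopril, at -0.34 and -0.83 in the same comparisons. The other tested probe set of Gadd45b did not pass (0.15 and 0.17). Cyr61, a matricellular protein, was lower with captopril (-0.68, adjusted p = 0.026) on a dim probe set whose suffix marks possible cross-hybridization.

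Inhba, the activin subunit βA, and Nfil3, a repressor of transcription, were low at 12 months, as Fosb was. The log2 difference to 18 months was -1.80 for Inhba (adjusted p = 0.0044) and -1.07 for Nfil3 (adjusted p = 0.0016), and treated mice were above mice of 12 months by 1.20 and 0.98. Inhba rested on unequal chips at 12 months, 167.4 and 63.0. Dusp4, another phosphatase of MAP kinases, was lower at 12 months as well (-0.81, adjusted p = 0.00095).

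Secreted and synaptic products of activity-regulated genes were mixed. Vgf and Scg2, precursors of neuropeptides, were lower with captopril (-0.20 and -0.24) and at 12 months (-0.47 and -0.19), and all 4 differences passed. Bdnf, the brain-derived neurotrophic factor, was 0.29 higher with captopril (adjusted p = 0.011) on its brighter probe set and 0.04 on the other (adjusted p = 0.77), and both were lower at 12 months (-0.23 and -0.51). Homer1, a scaffold protein of the synapse with a short activity-induced form, had 5 tested probe sets. Their captopril differences ran from 0.04 to 1.15 and their 12-month differences from -1.16 to 0.58, and which transcript each reads was not examined.

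Among 25 upstream regulators, 23 were on the array and tested. With captopril 5 were higher and 5 lower (median -0.06), beside 12.6% and 21.7% of all genes. At 12 months 4 were higher and 9 lower (median -0.12), beside 21% and 28%. Treated mice against mice of 12 months gave 8 higher and 4 lower (median 0.10), beside 20.1% and 20.6%. Creb1, which binds the cAMP response element, was 0.22 higher with captopril (adjusted p = 0.035), and its other 2 tested probe sets did not pass (0.15 and 0.20). The serum response factor, Srf, did not pass on its brighter probe set (-0.12 with captopril, adjusted p = 0.38, and -0.12 at 12 months, adjusted p = 0.34). Its second probe set was lower with captopril (-0.47, adjusted p = 0.022) and at 12 months (-0.91, adjusted p = 0.00054). Nab2, a corepressor that Egr proteins induce and that in turn holds them back, was lower with captopril (-0.49, adjusted p = 0.0013) and at 12 months (-0.34, adjusted p = 0.0044).

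Mef2c, a MEF2 transcription factor that limits synapse number, had the largest captopril difference of the 23 regulators. Its brightest probe set by the rule (1421027_a_at) read 2696 and 2611 without treatment at 18 months, 5530 and 5222 with captopril, and 5201 and 5120 at 12 months, a difference of 1.02 with captopril (adjusted p = 3.9e-06) and 0.96 at 12 months (adjusted p = 7.4e-06). Only 2 of its 5 tested probe sets passed with captopril, and the other 3 differed by -0.13 to 0.11. Rest, a repressor of neuronal genes, was higher with captopril by 0.89 (adjusted p = 0.018) on 1 of 2 tested probe sets, and the other differed by 0.06 (adjusted p = 0.85). Cabin1, which inhibits calcineurin and MEF2, was lower with captopril on its brightest probe set (-0.52) and higher on a dim one (1.66), so no direction can be given for the gene.

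Elk1, a partner of the serum response factor in the response to MAP kinases, was lower at 12 months on both tested probe sets (-1.17 and -1.38), and treated mice were 1.01 above mice of 12 months on the brighter one (adjusted p = 0.00048). Mkl1, another partner, was lower at 12 months (-0.72, adjusted p = 3.8e-05) and with captopril (-0.34, adjusted p = 0.0028). The histone deacetylase Hdac4 and the acetyltransferase Crebbp were higher in treated mice than at 12 months, by 0.48 (adjusted p = 0.0023) and 0.35 (adjusted p = 0.0013).

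**Figure D5:**
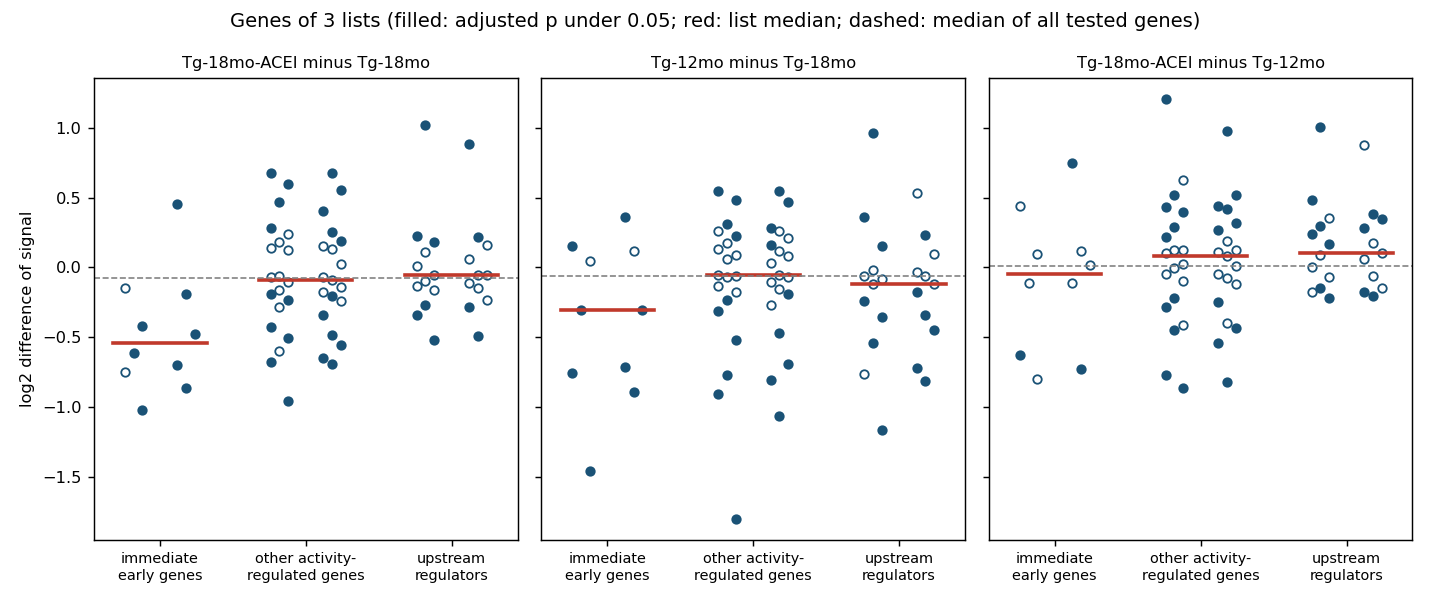
Log2 difference of signal (vertical axis) of the genes tested in 3 lists and 3 comparisons, 1 point per gene; filled points passed, red bars are list medians and the dashed line is the median of all genes. In the left panel the 10 members, labelled immediate early genes, have a median of -0.54. The other lists have -0.09 and -0.06, close to the dashed line at -0.08. The second list holds relatives of the members, of which Jun, Jund, Nr4a2 and Nr4a3 were higher with captopril and Fosl2 did not pass. Members and lists were chosen with earlier results of these data known, and the medians depend on which genes stood in which list.

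Other measures also separated the groups, and their part in these results was not tested. For 18S ribosomal RNA the control probe set at the 3′ end read 10219 and 11144 on the Tg-18mo chips and between 1999.95 and 2214 on the other 4. Arc, Egr1, Egr4, Junb and Npas4 were likewise highest on both Tg-18mo chips, and the bright probe set of Egr3 was lowest there. The 3′/5′ ratio of β-actin was 1.38 to 1.45 on the treated chips and 1.77 to 1.98 on the others. Of 6 choroid plexus markers 5 were lower with captopril, with Kcnj13, a potassium channel of that epithelium, at 1634 ± 95.3 in Tg-18mo, 244.3 ± 24.6 in Tg-18mo-ACEI and 1536 ± 276 in Tg-12mo. Their summed signal, mostly that of Ttr, was 22958 to 25393, 19577 to 21549 and 41088 to 41293 in the same order. Of 6 interneuron markers 5 were lower with captopril, and their summed signal was 29563 to 30158, 25388 to 25956 and 30541 to 31418. Of 6 thalamus and habenula markers 4 were lower and 1 higher with captopril, and their summed signal was 4953 to 5003, 3603 to 3621 and 4001 to 4002. General neuron markers were all expressed. They summed to 62308 to 65897 in Tg-18mo and 61384 to 64763 in Tg-18mo-ACEI, with 1 of 5 lower with captopril, but to 87719 to 88476 in Tg-12mo, with 4 of 5 higher there. Of 5 CA pyramidal neuron markers 1 was higher and 1 lower in both comparisons with untreated mice of 18 months. The 6 markers of dentate granule neurons summed to 5480 to 5752 in Tg-18mo, 5757 to 6055 in Tg-18mo-ACEI and 3577 to 3686 in Tg-12mo, and 3 of them were lower at 12 months. With captopril 2 of the 6 were higher, among them Prox1 (log2 difference 1.57, adjusted p = 0.00029), and 1 was lower. With captopril, 2 of 4 striatal markers were lower, and neocortical (2 higher, 1 lower of 6), endothelial (1 higher of 5) and microglial (2 higher, 2 lower of 6) markers were mixed. No marker was listed at 0. For these counts of markers, the shares of all genes tested were 21.7% lower and 12.6% higher with captopril. At 12 months they were 28% lower and 21% higher.

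The genes whose profile over the 6 chips was most like the mean of the 10 members were Cers2, Mindy4, Metrn, Hacl1 and Rusc1. Likeness was the root mean square difference of centred log2 signals, which was 0.022 for Cers2, a ceramide synthase, and 0.034 to 0.040 for the others, among 21110 probe sets. Cers2 had means of 1643 in Tg-18mo, 1203 in Tg-18mo-ACEI and 1245 in Tg-12mo. Among the members themselves Junb was closest to their mean (0.057), and Npas4 (0.46) and Egr3 (0.40) were farthest from it.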

How the data were processed

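Hippocampal RNA of male Tg2576 mice was measured on 6 Affymetrix MG430 2.0 chips, 2 per group, with RNA of 4 mice pooled per chip. The deposited values are signal intensities on a linear scale, with 1 value for a probe set on a chip; the authors computed them with the GCOS software and scaled every chip to a common target, and the mean after trimming 2% at each end was 600.003 or 600.004 on every chip. Detection calls, raw images and the study's own comparisons were not used here. The genome build behind the probe sets is not given in the sources used here. Genes were named from the platform annotation, which may be old, and only through probe sets with 1 symbol. Both this table's symbols and the RefSeq promoters (GRCm38.p6) were matched by symbol.

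Of 45101 probe sets, the 64 controls were left out, and 23262 were tested, those whose group mean reached a signal of 100 in any group. Log2 signals of all 6 chips were fitted with 3 group means in limma 3.58.1 (R 4.3.3; lmFit and eBayes with an intensity trend), which gave 3 residual degrees of freedom, with Benjamini-Hochberg adjustment across every tested probe set and a threshold of 0.05. A gene was represented by its tested probe set with the highest mean signal. All members were named, and of each list the 4 genes with the largest differences that passed in a comparison; other list genes were chosen after their values were seen. The members, lists and markers were chosen with earlier results of these data known. Chips of a group share a replicate number with chips of the other groups, and the numbers do not pair them. The script was tested on simulated data. Alternatives changed the offset, filter, normalization, prior variance, samples, block, probe sets, test and threshold. Tables and figures were made with Python 3.11.15, pandas 2.3.3 and matplotlib 3.10.9. The number of chips limits the precision.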

Additional observations from a re-analysis of the deposited data

How the results depend on the processing

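The counts of members were 7 lower and 1 higher with captopril, 6 and 2 at 12 months, and 2 and 1 in treated mice against mice of 12 months. The methods' t-test after adjustment gave, on linear and on log2 signals alike, 0 lower and 0 higher with captopril, 1 and 0 at 12 months, and 0 and 0 in the third comparison, with 2 chips a group. The study's thresholds gave 1 and 0, 1 and 0, and 0 and 0. The methods' t-test at those thresholds gave 0 and 0 with captopril, 1 lower (linear) or 0 lower (log2) and 0 higher at 12 months, and 0 and 0 in the third. The share of all genes called by this t-test was not computed, so its counts have no background to stand beside. With the mean of all or of the plain probe sets, 0 were higher with captopril and 1 at 12 months. The count higher at 12 months was also 1 with no filter, chips divided by their median, no trend and the replicate block, and 1 without each chip in turn. The count higher in treated mice against 12 months was 0 with a mean of at least 200 and 2 after quantile normalization, and 0 to 1 without each chip. Adding 32 to each signal and fitting only the groups compared moved none of these counts by over 1.5 times.

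Directions reversed only for differences that did not pass or, for Egr3, with other probe sets. For Egr2 at 12 months (0.05) the difference was -0.11 and -0.27 with the mean of all and of plain probe sets, and -0.22 to 0.31 without each chip; in treated mice against 12 months it was 0.18 with plain probe sets. For Egr3 it was -0.083 at 12 months with either mean. Against 12 months, the ranges without each chip were -0.0042 to 0.19 for Egr3, -0.23 to 0.010 for Egr4 and -0.033 to 0.063 for Arc, and Arc was -0.084 after quantile normalization. The cause was not tested.

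The replicate numbers do not pair the chips (correlations of deviations -0.03, 0.03 and -0.05). With the replicate block the captopril difference of Egr1 (-0.19, adjusted p = 0.052) and the 12-month difference of Nr4a1 (0.15, adjusted p = 0.067) did not pass; it changed no other call of a member. Egr1 also missed without a filter (adjusted p = 0.053), with chips divided by their median (0.073) and without the trend (0.11). Under the scalings tried the median of all probe sets ran from -0.046 to 0.062 on the log2 scale.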
